A study of Mus musculus with 12 samples.

Results

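The transcriptome of *ptges*-KO melanoma cells was compared with that of scramble control cells across all genes measured by RNA-seq, to ask which pathways and gene families differed besides the collagens and the 3 genes targeted in the study. The comparison was between 6 of the 12 samples of the series. The groups were set by the sample labels, and a gene was tested where its mean over the 12 samples reached 1 RPKM (reads per kilobase of transcript and per M reads).

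All samples came from 1 murine melanoma line of C57BL/6 background that carries the activating BrafV600E allele, which arose in a mouse that combined the Braf+/LSL-V600E allele with the Tyr::CreERT2+/o transgene on a p16INK4a-/- background, so the deletion of p16INK4a and the Braf allele were shared by control and knockout cells. Cre was driven by the tyrosinase promoter, which is active in melanocytes. The 3 *ptges*-KO samples had been made by CRISPR/Cas9 editing of *ptges*, and the 3 scramble samples had received a guide with no target. The knockout cells were selected with puromycin and subcloned by limiting dilution. Both lines were kept in D-MEM with 10% fetal bovine serum without any further treatment. RNA was taken from 3 subclones of each line, and whether the subclones of a line share 1 editing event is not given in the sources used here. Clonal differences between the lines cannot be told apart from the effect of the edit. Replicates measured the spread between subclones in culture. The 3 *ptgs1*-KO and 3 *ptgs2*-KO samples were made in the same way. They entered the filter and the estimate of the spread, and their levels are given beside those of genes, some gene lists, and chromosome segments described below. The estimated depth was 15.1 to 15.3 M reads in scramble cells and 15.6 to 17.1 M reads in *ptges*-KO cells.

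*Ptges* encodes microsomal prostaglandin E synthase-1 (mPGES-1), the inducible terminal enzyme that turns prostaglandin H2, the product of the cyclooxygenases, into prostaglandin E2. Prostaglandin E2 acts through G protein-coupled receptors that raise or lower cAMP or release calcium, and in tumors it is known for its effects on immune cells, vessels, and tumor cell growth. Many of the gene groups described here are known as the output of single regulators: hypoxia-inducible factors induce glycolytic enzymes, SREBP proteins induce cholesterol and fatty acid synthesis, ATF4 induces amino acid synthesis, and HSF1 induces chaperones.

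*Ptges* transcript was checked first. Its level was 77.99, 75.01, and 79.8 RPKM in scramble replicates 1 to 3 and 41.01, 35.6, and 34.8 RPKM in *ptges*-KO replicates 1 to 3. Here and below, 3 values in a row are replicates 1, 2, and 3. The groups did not overlap, and the log2 fold change of *Ptges* was -1.05 (SE 0.079, adjusted p = 1.07e-06), so the samples carried the label's direction with about 47.9% of the scramble level left. Protein was not measured in these files. The other targeted genes, *Ptgs1* and *Ptgs2*, which encode the cyclooxygenases COX-1 and COX-2, had log2 fold changes of 0.0042 (adjusted p = 0.982) and -0.016 (adjusted p = 0.928).

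The values covered 30705 gene names. In none of the 12 samples did 12082 of these exceed 0, and 11282 passed the filter. All fold changes below are differences of group means on the log2(RPKM + 1) scale, *ptges*-KO minus scramble, which understates the change of genes with low values, and a gene was called when limma's p, adjusted by Benjamini-Hochberg over the 11282 genes, was under 0.05. By this rule 2969 genes (26.3%) changed, 1342 upward (11.9%) and 1627 downward (14.4%). Of these, 219 moved by at least 1 on the log2 scale, 74 upward and 145 downward. The 3 replicates of both groups did not overlap for 4884 genes (43.3%). Against *ptgs2*-KO cells 1873 genes (16.6%) differed, and against *ptgs1*-KO cells 3409 genes (30.2%) differed. These comparisons share the *ptges*-KO samples with the main one, so their values are only set side by side, for single genes, some gene lists, and chromosome segments.

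**Figure D1:**
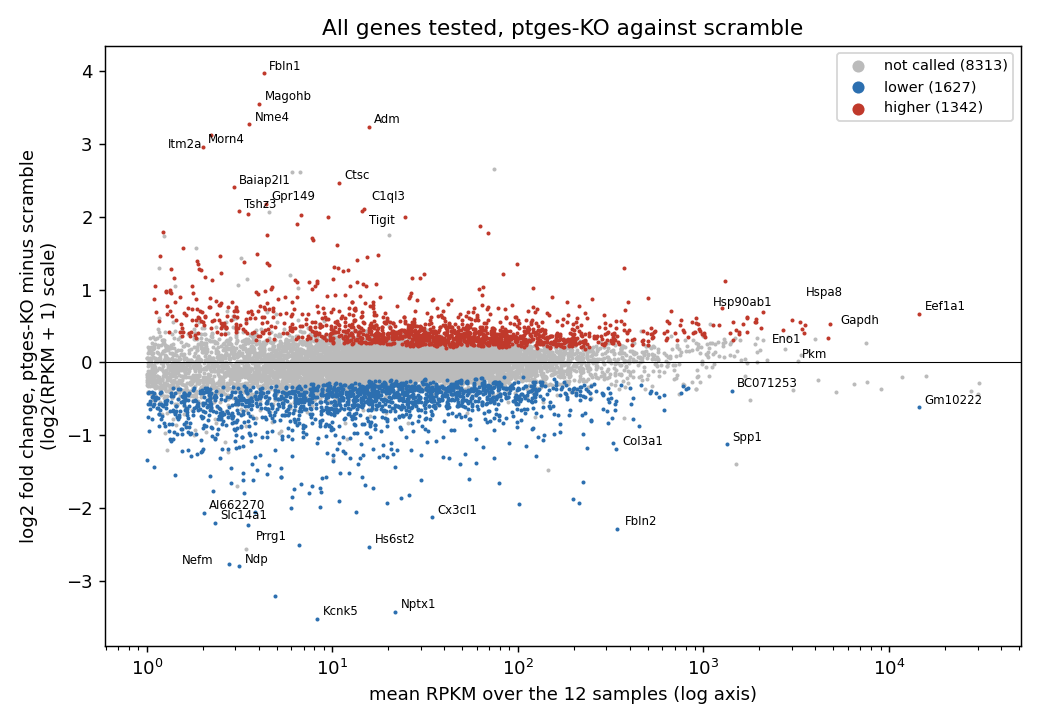
Each point is 1 of the 11282 genes tested, with its mean RPKM over the 12 samples on a log axis and its log2 fold change, *ptges*-KO minus scramble, on the log2(RPKM + 1) scale. Red points are the 1342 genes that rose and blue points the 1627 that fell at an adjusted p under 0.05. The labels name genes with the largest fold changes or the largest differences in RPKM, among them *Adm* and *Fbln1* above and *Kcnk5*, *Nptx1*, and *Fbln2* below.

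The direction of change followed transcript properties. Genes were split into 5 bins of nearly equal size by each property. In the bin with the lowest GC content 16.7% rose and 8.37% fell, and in the bin with the highest GC content 5.99% rose and 23.2% fell. The bin of the longest transcripts fell more often (18.1%) than it rose (7.72%), and the most abundant bin rose more often (20.3%) than it fell (12.2%). Upward calls made up 45.2% of all calls as deposited, 55.4% after trends with GC content and length were removed, and 30.9% when the 20 most abundant genes were left out and the rest rescaled. How far composition of the libraries took part in the shares below was not tested, and counts after the removal of these trends are given for several gene lists.

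*Ptges*-KO replicate 1 stood apart from replicates 2 and 3 in ribosomal protein genes, where it lay within the scramble range or close to it. The median deviation of 77 cytosolic ribosomal protein genes from the scramble mean was -0.1, 0.403, and 0.45 in *ptges*-KO replicates 1 to 3 and 0.15, -0.052, and -0.093 in the scramble replicates. In *ptgs2*-KO cells replicate 1 stood apart as well, at -0.636 beside 0.044 and 0.014. *Ptges*-KO replicate 1 also differed from replicates 2 and 3 in other lists. Examples are integrins (-0.102 beside -0.360 and -0.339) and the TGF-beta family (0.104 beside -0.133 and -0.151). List counts of 5 or more that moved by over 1.5 times when 1 sample was left out are given with the count without it. Smaller counts were less certain: of 53 list counts between 1 and 4, 29 moved by as much, and no direction of a list is read from them.

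Shares of each gene list are read against the shares over all genes tested, 11.9% higher and 14.4% lower. Other settings moved the counts over all genes too, and list counts under a setting are to be read against these. Of 11282 genes, 2054 rose and 1715 fell under median ratio scaling, and 1870 rose and 1606 fell under quantile normalization. After the GC and length trends were removed, 2188 of 10677 rose and 1764 fell. Genes named for each list are the called members with the largest fold changes or the most abundant members, and those named otherwise are marked.

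**Figure D2:**
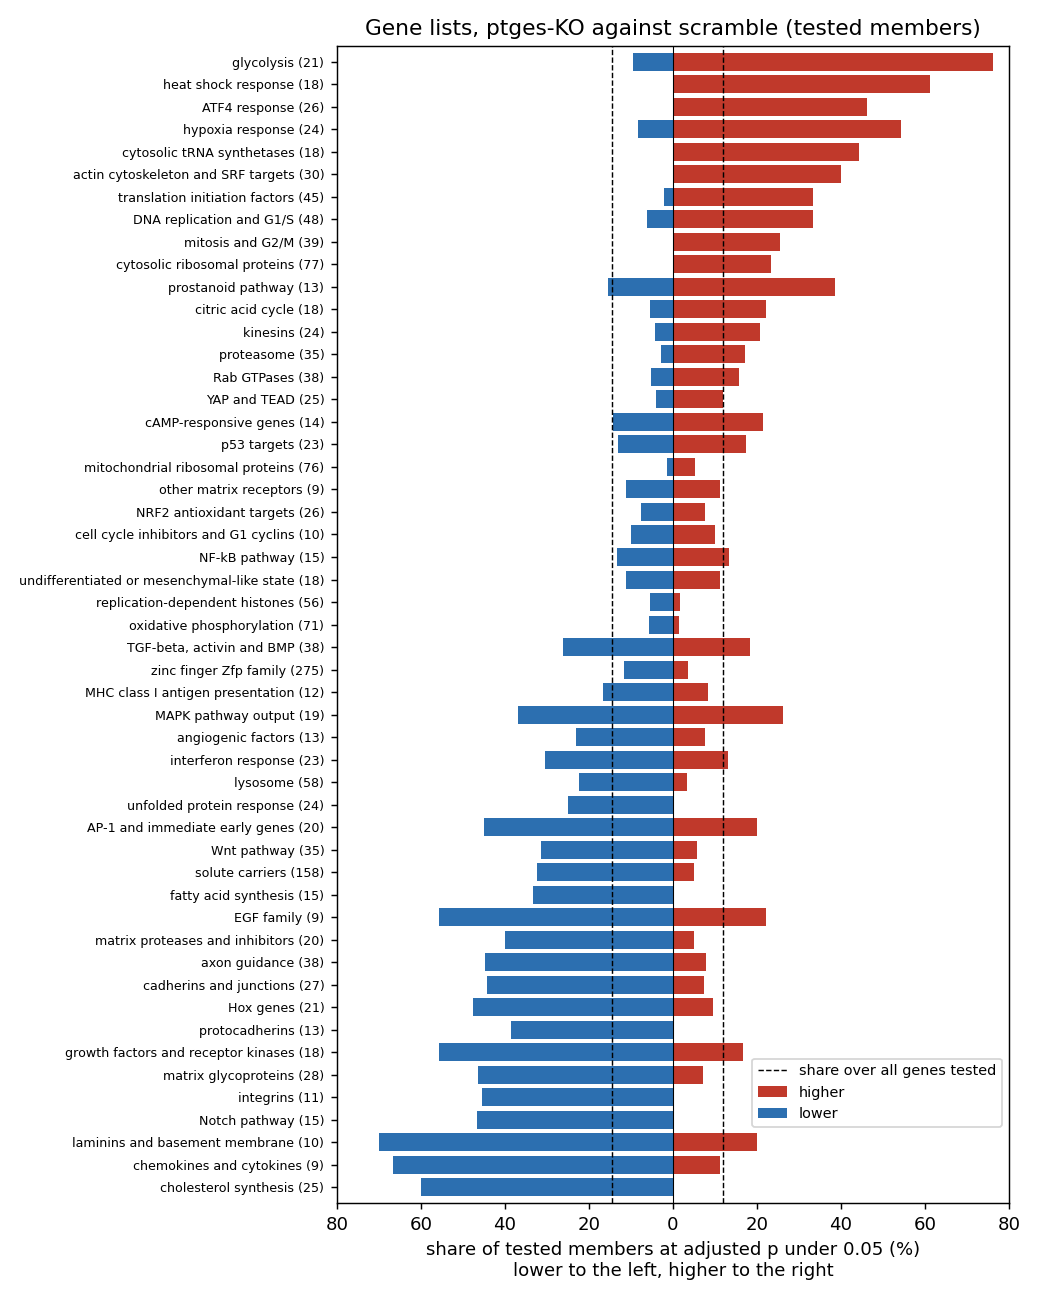
Bars show, for each gene list with its number of tested members in parentheses, the share of members that rose (right, red) or fell (left, blue) in *ptges*-KO cells at an adjusted p under 0.05, and dashed lines show the shares over all 11282 genes. Glycolysis (76.2% higher) is at the top and cholesterol synthesis (60% lower) at the bottom. The bottom place is not a rank by the share lower, which was 70% for laminins and basement membrane.

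Transcripts of glycolysis were higher in *ptges*-KO cells along nearly the whole pathway. Glycolysis splits glucose into pyruvate, which lactate dehydrogenase reduces to lactate, and its enzymes are classic targets of hypoxia-inducible factors. Of 21 members tested, 16 rose (76.2%) and 2 fell, and their median fold change was 0.52 on the log2 scale beside -0.030 over all genes tested. Among 16 enzymes of the pathway itself 14 rose. With any 1 sample left out, 14 to 15 members rose. After removal of the GC and length trends 18 rose.

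The platelet isoform of phosphofructokinase, *Pfkp*, which commits glucose to glycolysis, had 12.7, 11.1, and 12.9 RPKM in scramble and 38.03, 34.8, and 34.9 RPKM in *ptges*-KO cells. Its log2 fold change of 1.48 (SE 0.10, adjusted p = 4.58e-07) was the largest of the list. Phosphoglycerate kinase *Pgk1*, which makes the first ATP of the pathway, rose from 998, 992, and 1011 RPKM to 2316, 2134, and 2059.5 RPKM, a log2 fold change of 1.11 (SE 0.078, adjusted p = 5.42e-07). All *ptges*-KO values of both genes lay above all scramble values. Pyruvate dehydrogenase kinase *Pdk1*, which holds pyruvate back from the mitochondria, rose by 0.92 (SE 0.098, adjusted p = 2.68e-05), and hexokinase *Hk2*, which traps glucose in the cell, by 0.75 (SE 0.127, adjusted p = 0.00103). *Gapdh* and *Eno1*, the most abundant members, rose by 0.53 (SE 0.113, adjusted p = 0.00449) and 0.52 (SE 0.116, adjusted p = 0.00581). *Gapdh* stood at 4514, 4402, and 4302 RPKM in scramble and 6075, 6397, and 6609.6 RPKM in *ptges*-KO cells, and it is often used as a reference gene. *Pgk1* and *Pfkp* were also higher than in both other knockout lines, by 0.81 (adjusted p = 1.13e-05) for *Pgk1* against *ptgs2*-KO and 1.38 (adjusted p = 3.06e-08) against *ptgs1*-KO cells, and by 1.54 (adjusted p = 2.75e-07) and 1.63 (adjusted p = 7.39e-08) for *Pfkp*.

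Most tested genes of the wider hypoxia response rose too, although the list shares *Pdk1* and other genes with glycolysis. Of 24 members tested, 13 rose (54.2%) and 2 fell, at a median of 0.41 on the log2 scale. Among 17 target genes 12 rose. Leaving out 1 sample left 10 to 12 members higher, and none was lower without *ptges*-KO replicate 2. Adrenomedullin, *Adm*, a vasodilator peptide that hypoxia induces strongly, showed the largest change. *Adm* measured 5.2, 5.68, and 4.69 RPKM in scramble and 64.3, 54.2, and 53.9 RPKM in *ptges*-KO cells, so every *ptges*-KO value was above all scramble values. Its log2 fold change was 3.24 (SE 0.111, adjusted p = 8.31e-10). In *ptgs1*-KO cells *Adm* measured 0, 0.1, and 0.1 RPKM and in *ptgs2*-KO cells 0.1, 0.13, and 0.18 RPKM, below scramble in every sample. *Bnip3*, a mitophagy receptor, rose by 1.02 (SE 0.09, adjusted p = 4.54e-06), and *Ndrg1*, a stress-responsive gene linked to differentiation, rose by 1.01 (SE 0.082, adjusted p = 2.19e-06). The cytokine *Mif* rose by 0.41 (SE 0.097, adjusted p = 0.00828). The glucose transporter *Slc2a1* had 262, 288, and 250.3 RPKM in scramble and 324, 278, and 292 RPKM in *ptges*-KO cells, which overlapped (log2 fold change 0.16, adjusted p = 0.284). *Vegfa*, the angiogenic growth factor and a textbook hypoxia target that was picked after its values were seen, had 28.8, 24.5, and 29.1 RPKM in scramble and 27.6, 26.5, and 25.1 RPKM in *ptges*-KO cells, with a log2 fold change of -0.05 (adjusted p = 0.732). Oxygen was not measured.

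Promoters of 3 genes that rose are shown because the core letters of the hypoxia response element, ACGTG, can be seen in them. Each is the 250 bases before the RefSeq start in GRCm38.p6, in the direction of the gene, with every match on either strand (ACGTG or CACGT) in capitals. CACGTG holds a match on both strands.
Pgk1, chrX:106186850-106187099, plus strand: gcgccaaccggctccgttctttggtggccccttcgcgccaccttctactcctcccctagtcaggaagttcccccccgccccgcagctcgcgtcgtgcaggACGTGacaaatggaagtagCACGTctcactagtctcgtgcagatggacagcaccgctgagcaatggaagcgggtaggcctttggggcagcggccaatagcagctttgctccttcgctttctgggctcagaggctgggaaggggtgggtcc
Ldha, chr7:46845554-46845803, plus strand: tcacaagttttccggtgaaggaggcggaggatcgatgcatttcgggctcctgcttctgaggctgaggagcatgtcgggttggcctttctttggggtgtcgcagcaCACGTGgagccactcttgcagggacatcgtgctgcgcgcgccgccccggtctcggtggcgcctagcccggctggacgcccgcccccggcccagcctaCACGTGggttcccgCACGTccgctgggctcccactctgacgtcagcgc
Bnip3, chr7:138909507-138909756, minus strand: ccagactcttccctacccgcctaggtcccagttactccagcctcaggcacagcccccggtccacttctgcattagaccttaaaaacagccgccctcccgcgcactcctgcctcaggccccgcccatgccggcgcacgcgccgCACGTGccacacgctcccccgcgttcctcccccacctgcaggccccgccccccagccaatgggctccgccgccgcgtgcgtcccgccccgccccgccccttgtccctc
*Pgk1* has 2 matches, *Ldha* 5, and *Bnip3* 2, with both strands of a CACGTG counted. Genes were counted as having ACGTG when any of their promoter entries of this length held a match. It occurred in 4998 of 27025 mouse genes (18.5%). Of glycolysis genes it occurred in 8 of 16 that rose, in 1 of 2 that fell, and in 2 of 3 that were not called. For the hypoxia response, 10 of the 13 genes that rose had a promoter entry, and 5 of these 10 held ACGTG. It occurred in 1 of 2 hypoxia genes that fell and in 5 of 9 that were not called. Lactate dehydrogenase *Ldha*, shown for its matches and picked after its values were seen, had 1896, 1866, and 1903 RPKM in scramble and 2959, 3052, and 3139 RPKM in *ptges*-KO cells (log2 fold change 0.69, SE 0.102, adjusted p = 0.000386). Binding to these sites was not measured. *Ndrg1* has no entry in the promoter table.

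Oxidative phosphorylation and mitochondrial ribosomal proteins held few calls. Of 71 subunits of oxidative phosphorylation tested, 1 rose and 4 fell (1 without scramble replicate 1 or 3 or *ptges*-KO replicate 1, and 2 without *ptges*-KO replicate 2), and 10 fell after the GC and length trends were removed. The median of -0.15 rested mainly on *ptges*-KO replicate 1, without which it was -0.008, and it was -0.083 without scramble replicate 1. The list stood at -0.41, -0.024, and 0.021 in *ptges*-KO replicates 1 to 3. The ATP synthase subunits *Atp5b* and *Atp5a1*, the most abundant of the list, had log2 fold changes of 0.029 (adjusted p = 0.855) and 0.088 (adjusted p = 0.446). Of 18 enzymes of the citric acid cycle 4 rose (22.2%) and 1 fell (5.56%), and 1 to 2 rose when a scramble sample was left out. Of 76 mitochondrial ribosomal proteins 4 rose and 1 fell, with 2 higher without scramble replicate 2 or *ptges*-KO replicate 2.

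Cholesterol synthesis showed the opposite pattern. Cells make cholesterol from acetyl-CoA in a long chain of enzymes, and take it up from lipoproteins. When sterols are low, SREBP2 raises both. Of 25 members tested, 15 fell (60%) and none rose by limma (0 at an unadjusted p under 0.05), at a median of -0.37, and 13 to 17 fell when 1 sample was left out. All 3 regulators and 11 of 20 enzymes fell. After the GC and length trends were removed, 18 fell.

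*Tm7sf2*, a sterol reductase of the late pathway, had 19.4, 16.9, and 16.9 RPKM in scramble and 8.78, 7.03, and 10.1 RPKM in *ptges*-KO cells. The groups did not overlap and the log2 fold change of *Tm7sf2* was -0.97 (SE 0.127, adjusted p = 0.000151). Farnesyl diphosphate synthase *Fdps*, of the same pathway, had 295, 301, and 284 RPKM in scramble and 314, 320.4, and 332 RPKM in *ptges*-KO cells and was not called (log2 fold change 0.14, adjusted p = 0.256). The 3 regulators and lanosterol synthase *Lss*, which closes the sterol rings, are named here after their values were seen. *Srebf2*, which encodes SREBP2, fell from 307, 339.5, and 323 to 285, 213, and 223 RPKM (log2 fold change -0.44, SE 0.125, adjusted p = 0.0216). *Scap*, which escorts SREBP out of the endoplasmic reticulum, fell from 66.7, 76.2, and 74.7 to 65.98, 49.5, and 42.1 RPKM (log2 fold change -0.48, SE 0.158, adjusted p = 0.0395), and *Insig1*, which holds SCAP back, fell from 123, 127, and 123 to 98.3, 81.3, and 81.7 RPKM (log2 fold change -0.52, SE 0.085, adjusted p = 0.00085). For all 3 regulators *ptges*-KO replicate 1 lay nearest to scramble, and their groups did not overlap. The calls of *Srebf2* and *Scap* were lost without scramble replicate 2 or 3 or *ptges*-KO replicate 2 or 3, and that of *Scap* also without scramble replicate 1. Adjusted p then reached 0.0956 for *Srebf2* and 0.161 for *Scap*. *Lss* fell from 71.4, 70.6, and 75.1 to 51.4, 46.3, and 46.4 RPKM (log2 fold change -0.58, SE 0.076, adjusted p = 0.000148). Against *ptgs2*-KO cells the log2 fold change of *Tm7sf2* was -0.11 (adjusted p = 0.616). A sterol regulatory element of the letters TCACNCCAC, where N is any base, was searched on both strands in the 250 bases before the start. Counted by gene as above, it was in 331 of 27025 genes (1.22%). Of the 15 members that fell 12 had a promoter entry, and 0 of these held it. Of the 10 not called 6 had an entry, and 1 held it. At a share of 1.22% over all genes, so few promoters cannot show whether the element is rarer or more common in this list.

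Part of fatty acid synthesis fell as well. Of 15 members tested, 5 fell (33.3%) and none rose by limma (2 at an unadjusted p under 0.05), with a median of -0.18. Without *ptges*-KO replicate 1 the count was 8, and without scramble replicate 2, *ptges*-KO replicate 2, or *ptges*-KO replicate 3 it was 3. The median was -0.12 without *ptges*-KO replicate 3. The list stood at -0.020, -0.230, and -0.308 in *ptges*-KO replicates 1 to 3 and at -0.051, 0.029, and 0.033 in the scramble replicates. Its *ptges*-KO replicate 1 thus lay within the scramble range. Under median ratio or quantile scaling, and after the GC and length trends were removed, 2 members rose. *Srebf1*, which encodes the SREBP1 regulator of lipid synthesis, fell from 222, 259, and 225 to 162, 133, and 133 RPKM (log2 fold change -0.72, SE 0.12, adjusted p = 0.000908). Fatty acid synthase *Fasn* fell from 302, 311, and 343 to 249.6, 187, and 182 RPKM (log2 fold change -0.64, SE 0.13, adjusted p = 0.00323), and the elongase *Elovl6*, which lies in the low distal segment of chromosome 3 described below, (log2 fold change -0.64, SE 0.147, adjusted p = 0.00675). The desaturases *Scd1* and *Scd2* were abundant and not called (log2 fold changes -0.094, adjusted p = 0.603, and -0.18, adjusted p = 0.325), and their *ptges*-KO replicate 1 lay above all scramble values. Without that replicate *Scd2* was called lower.

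**Figure D3:**
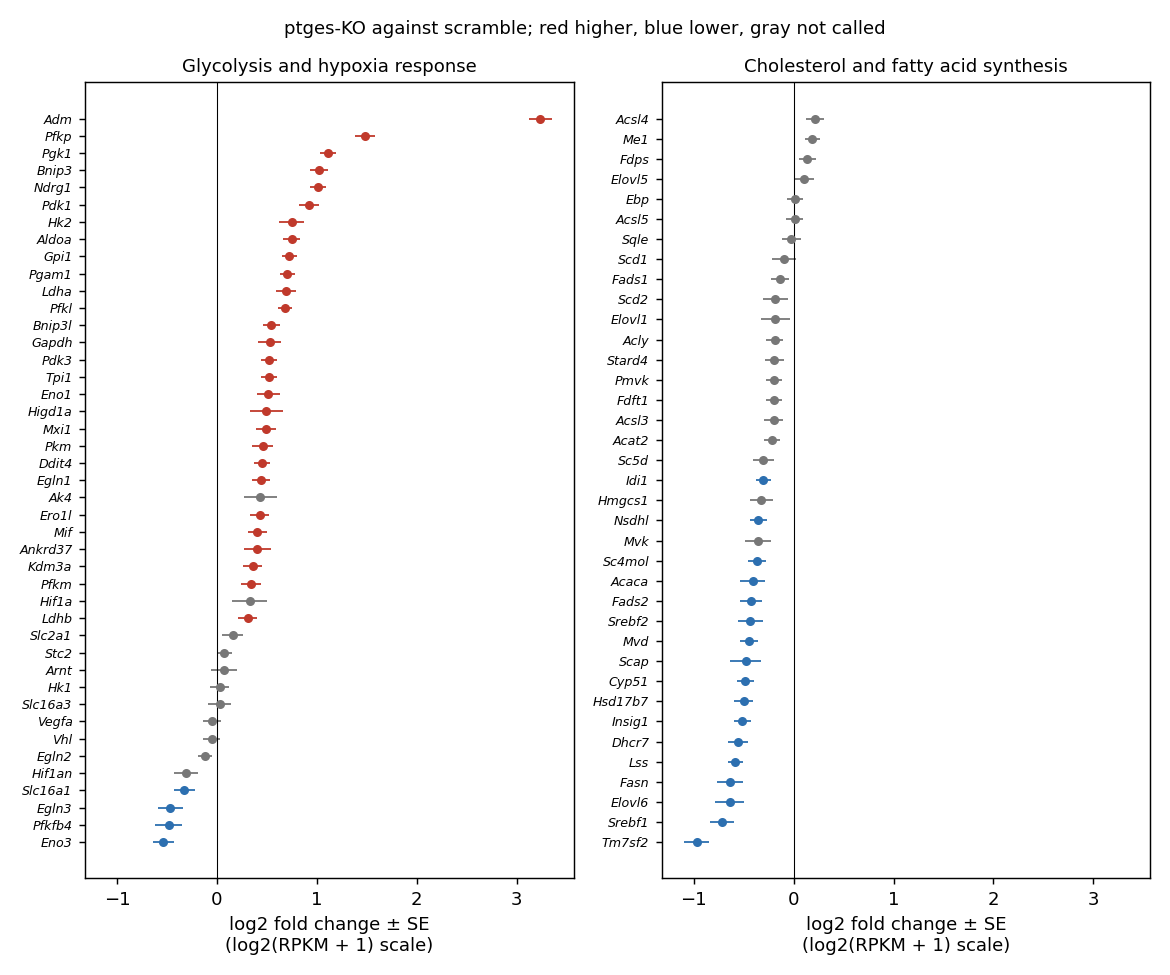
Points give the log2 fold change, *ptges*-KO minus scramble, of tested members of the glycolysis and hypoxia lists (left) and of the cholesterol and fatty acid lists (right), and bars give its standard error. Red marks genes that rose, blue genes that fell, and gray genes not called. No gene in the right panel is red, and *Adm* is the farthest point on the left.

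Most amino acid synthesis genes of the ATF4 list rose, as did some of the enzymes that charge tRNA. ATF4 is a transcription factor translated under amino acid or redox stress that induces serine, proline, and one-carbon enzymes as well as tRNA synthetases. Of 26 members of the ATF4 list 12 rose (46.2%) and none fell by limma (2 at an unadjusted p under 0.05), with a median of 0.22 and 9 to 11 higher with 1 sample left out, and 2 fell without *ptges*-KO replicate 1. Among its 9 amino acid synthesis genes 7 rose, and among its 5 transporters none was called. *Aldh1l2*, a mitochondrial folate enzyme, had 4.64, 3.78, and 4.71 RPKM in scramble and 13.6, 13.1, and 11.8 RPKM in *ptges*-KO cells, with no overlap and a log2 fold change of 1.37 (SE 0.115, adjusted p = 2.93e-06). It was higher than in *ptgs2*-KO cells by 3.47 (adjusted p = 3.18e-10) and than in *ptgs1*-KO cells by 3.46 (adjusted p = 2.57e-10). *Pycr1*, which makes proline, rose from 13.6, 12.3, and 14.2 to 25.6, 24.2, and 27.5 RPKM (log2 fold change 0.899, SE 0.091, adjusted p = 1.73e-05), and the stress factor *Nupr1* rose by 0.74 (SE 0.14, adjusted p = 0.00218). The serine enzymes *Psat1* and *Phgdh* were the most abundant members and rose by 0.54 (SE 0.083, adjusted p = 0.000517) and 0.38 (SE 0.095, adjusted p = 0.0109). Of 18 cytosolic tRNA synthetases 8 rose (44.4%) and none fell by limma (0 at an unadjusted p under 0.05), 13 of them rose when the samples were scaled by their median ratio, and 14 after the GC and length trends were removed. The asparagine enzyme *Nars* rose by 0.65 (SE 0.067, adjusted p = 2.18e-05) and the threonine enzyme *Tars* by 0.45 (SE 0.067, adjusted p = 0.000451). The valine enzyme *Vars* was at -0.059 (adjusted p = 0.704), and its direction turned when the GC and length trends were removed.

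Most chaperones of the cytosol rose. Heat shock proteins fold and refold proteins in the cytosol. Of 18 tested, 11 rose (61.1%) and none fell by limma (0 at an unadjusted p under 0.05), with a median of 0.27 and 8 to 11 with 1 sample left out. *Hspa8*, the constitutive HSC70 chaperone, had 2849, 2831, and 2742 RPKM in scramble and 4206, 4148, and 4075 RPKM in *ptges*-KO cells, with a log2 fold change of 0.56 (SE 0.097, adjusted p = 0.00118). *Hsp90ab1* rose by 0.58 (SE 0.106, adjusted p = 0.00172), *Hsp90aa1* by 0.403 (SE 0.076, adjusted p = 0.00205), and *Hspa4l*, of the HSP110 family, by 0.603 (SE 0.106, adjusted p = 0.00131). *Hspa4l* lies in the high proximal segment of chromosome 3. Against *ptgs2*-KO cells *Hspa8* was at 0.21 (adjusted p = 0.17) and *Hsp90ab1* at 0.14 (adjusted p = 0.402), which were not called. Of 24 genes of the unfolded protein response, which acts in the endoplasmic reticulum, none rose by limma (0 at an unadjusted p under 0.05) and 6 fell (25%), 3 without *ptges*-KO replicate 2. *Syvn1*, a ubiquitin ligase of that compartment, fell (log2 fold change -0.596, SE 0.099, adjusted p = 0.000873) and the chaperone *Hyou1* (log2 fold change -0.53, SE 0.127, adjusted p = 0.0084), while the abundant chaperones *Hsp90b1* and *Calr* were at 0.083 (adjusted p = 0.531) and -0.019 (adjusted p = 0.915). Of 35 proteasome subunits 6 rose and 1 fell, and 1 to 3 rose when any sample but *ptges*-KO replicate 3 was left out.

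Part of the translation machinery rose. Of 45 initiation factors 15 rose (33.3%) and 1 fell, with a median of 0.196, and 8 rose without scramble replicate 2 and 23 under median ratio scaling. *Eif2a*, in the high proximal segment of chromosome 3, rose from 50.9, 51.1, and 51.3 to 91.4, 86.5, and 88.1 RPKM (log2 fold change 0.78, SE 0.067, adjusted p = 3.25e-06), *Eif5* by 0.54 (SE 0.11, adjusted p = 0.00333), and *Eif3c* by 0.52 (SE 0.083, adjusted p = 0.000623). The helicase *Eif4a2*, which lies in the low segment of chromosome 16 described below, was the one that fell, from 152, 133, and 151 to 63.5, 80.5, and 88.2 RPKM (log2 fold change -0.91, SE 0.116, adjusted p = 0.000126). Elongation factor *Eef1a1*, the transcript with the largest gain in RPKM, had 11661, 12057, and 12152 RPKM in scramble and 20381, 18847, and 17909.8 RPKM in *ptges*-KO cells (log2 fold change 0.67, SE 0.142, adjusted p = 0.00425). Of 77 cytosolic ribosomal proteins 18 rose (23.4%) and none fell by limma (0 at an unadjusted p under 0.05). In the most abundant bin of all genes tested 20.3% rose, so this share was near that of abundant genes. The count of ribosomal proteins that rose was 9 without scramble replicate 2, 7 without scramble replicate 3, 8 without *ptges*-KO replicate 2 or 3, and 25 without *ptges*-KO replicate 1. Under quantile normalization 8 rose and 1 fell, with a median of 0.059 in place of 0.24 as deposited, and 30 rose after the GC and length trends were removed. The median as deposited was 0.425 without *ptges*-KO replicate 1 and 0.14 without *ptges*-KO replicate 3. *Rpl3* rose from 1271, 1250.2, and 1226 to 1794, 1881, and 1851 RPKM (log2 fold change 0.56, SE 0.092, adjusted p = 0.000811). Ribosomal protein genes have many processed pseudogenes, so that reads may be split between copies.

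Some cell cycle genes rose, in counts that depended on single samples. Of 48 genes of DNA replication 16 rose (33.3%) and 3 fell, with a median of 0.18, and of 39 mitotic genes 10 rose (25.6%) and none fell by limma (2 at an unadjusted p under 0.05), with a median of 0.17. Without scramble replicate 2 they were 5 and 4, without scramble replicate 3 they were 8 and 4, and without *ptges*-KO replicate 2 they were 9 and 5. Under median ratio scaling they were 28 and 19, and after the GC and length trends were removed 25 and 21. Without *ptges*-KO replicate 1, 2 mitotic genes fell. The median of the mitotic list was 0.11 without scramble replicate 2. The helicase subunit *Mcm6*, among the most abundant genes of the replication list, rose by 0.36 (SE 0.081, adjusted p = 0.00582), and the chromatin assembly factor *Chaf1b* by 0.56 (SE 0.084, adjusted p = 0.000437). The transcription factors *E2f2* (log2 fold change -0.57, SE 0.103, adjusted p = 0.0016) and *E2f8* (log2 fold change -0.52, SE 0.116, adjusted p = 0.00529) fell. *Anln*, needed for cytokinesis, rose by 0.39 (SE 0.095, adjusted p = 0.00926) and the checkpoint kinase *Bub1* by 0.37 (SE 0.10, adjusted p = 0.0172), a call that was lost without scramble replicate 2 or 3 or without *ptges*-KO replicate 1 (0.29 to 0.41 with 1 sample left out). The proliferation markers *Mki67* and *Top2a* overlapped between groups (log2 fold changes 0.079, adjusted p = 0.679, and 0.21, adjusted p = 0.117), as did *Pcna* (log2 fold change 0.12, adjusted p = 0.492). Of the G1 cyclins, *Ccnd2* fell from 66.2, 66.9, and 74.1 to 46.3, 38.4, and 35.8 RPKM (log2 fold change -0.77, SE 0.107, adjusted p = 0.000235), and the much more abundant *Ccnd1* was at 0.13 (adjusted p = 0.284). Of 23 p53 targets 4 rose and 3 fell, with 1 lower without scramble replicate 2 or *ptges*-KO replicate 2. Under median ratio scaling 7 of these targets rose, and after the GC and length trends were removed 10 rose and 2 fell.

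The actin cytoskeleton rose in part. Of 30 cytoskeletal genes and targets of SRF, a transcription factor regulated by actin, 12 rose (40%) and none fell by limma (1 at an unadjusted p under 0.05), with a median of 0.19 and 11 to 12 higher with 1 sample left out, and 1 fell without *ptges*-KO replicate 1. After the GC and length trends were removed 19 rose, with a median of 0.32. *Fhl1*, a LIM-domain protein, had 30.3, 28.98, and 30.6 RPKM in scramble and 121, 111, and 105 RPKM in *ptges*-KO cells, with no overlap and a log2 fold change of 1.87 (SE 0.069, adjusted p = 1.63e-09). *Enah*, an actin polymerization factor, rose from 8.9, 8.53, and 10 to 24.3, 19.4, and 19.03 RPKM (log2 fold change 1.104, SE 0.121, adjusted p = 3.31e-05), and cytoplasmic actin *Actg1* rose by 0.63 (SE 0.111, adjusted p = 0.00135). *Actb* was at 0.35 (adjusted p = 0.0515). *Enah* and *Actg1* did not pass the test against *ptgs2*-KO cells (log2 fold changes 0.34, adjusted p = 0.0701, and 0.096, adjusted p = 0.607), and *Fhl1* did (log2 fold change 0.83, adjusted p = 3.1e-06).

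Most of the largest single-gene rises were outside these pathways. *Fbln1*, which encodes the matrix protein fibulin 1, had 0.15, 0.16, and 0.1 RPKM in scramble and 18.5, 14.99, and 17.2 RPKM in *ptges*-KO cells, with a log2 fold change of 3.97 (SE 0.114, adjusted p = 3.32e-10). It was near 0 in every sample of the other 3 lines. *Magohb*, a core subunit of the exon junction complex, had 0.34, 0.27, and 0.53 RPKM in scramble and 12.2, 16.6, and 17.3 RPKM in *ptges*-KO cells (log2 fold change 3.56, SE 0.156, adjusted p = 6.1e-09). *Morn4* had 0.1, 0.03, and 0.27 RPKM in scramble and 7.53, 7.69, and 8.22 RPKM in *ptges*-KO cells (log2 fold change 2.96, SE 0.121, adjusted p = 3.04e-09), and the membrane protein gene *Itm2a* had 0, 0.19, and 0.11 RPKM in scramble and 7.75, 9.25, and 8.76 RPKM in *ptges*-KO cells (log2 fold change 3.12, SE 0.124, adjusted p = 2.63e-09). The nucleoside diphosphate kinase *Nme4* was listed at 0 in all 3 scramble samples and had 7.32, 9.04, and 9.85 RPKM in *ptges*-KO cells. It was also listed at 0 in *ptgs2*-KO cells but had 5.78, 5.71, and 5.04 RPKM in *ptgs1*-KO cells, so its presence was shared by 2 of the edited lines. *Ctsc*, a lysosomal dipeptidyl peptidase that activates serine proteases, rose from 5.94, 5.11, and 5.4 to 37.9, 34.2, and 32.4 RPKM (log2 fold change 2.47, SE 0.132, adjusted p = 4.46e-08). *Gpr149*, an orphan receptor gene in the high proximal segment of chromosome 3, rose from 2.38, 2.68, and 1.99 to 16.02, 12.8, and 13.6 RPKM (log2 fold change 2.18, SE 0.128, adjusted p = 1.15e-07). *Tigit*, known as an inhibitory receptor of T and NK cells, had 5.8, 7.18, and 7.49 RPKM in scramble and 36.3, 28.8, and 31.1 RPKM in *ptges*-KO cells (log2 fold change 2.08, SE 0.142, adjusted p = 4.93e-07), in cells whose T cell markers were under 1 RPKM. It lies in the low segment of chromosome 16 and moved against it.

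Among the falls, some genes lost nearly all transcript. *Kcnk5*, a potassium channel, had 10.3, 10.7, and 11.2 RPKM in scramble and 0.03, 0.02, and 0 RPKM in *ptges*-KO cells (log2 fold change -3.53, SE 0.118, adjusted p = 8.31e-10). It was at 15.9, 13.2, and 12.3 RPKM in *ptgs1*-KO and 9.34, 9.24, and 7.28 RPKM in *ptgs2*-KO cells. *Prrg1*, which encodes a membrane Gla protein, had 3.66, 3.77, and 3.73 RPKM in scramble and was listed at 0 in all *ptges*-KO samples, while it had 7.47, 6.6, and 4.22 RPKM in *ptgs1*-KO and 4.21, 3.56, and 5.09 RPKM in *ptgs2*-KO cells. The neurofilament gene *Nefm* had 6.45, 6.29, and 7.04 RPKM in scramble and 0.16, 0, and 0.18 RPKM in *ptges*-KO cells (log2 fold change -2.77, SE 0.113, adjusted p = 3.04e-09) and did not differ past the threshold from *ptgs2*-KO cells (log2 fold change -0.14, adjusted p = 0.429). Neuronal pentraxin *Nptx1* fell from 48.9, 54.7, and 51.8 to 4.3, 3.65, and 3.78 RPKM (log2 fold change -3.43, SE 0.115, adjusted p = 8.31e-10), and the heparan sulfate sulfotransferase *Hs6st2* from 15.6, 17.8, and 14.6 to 2.41, 2.17, and 1.32 RPKM (log2 fold change -2.54, SE 0.208, adjusted p = 2.39e-06). By the rule of at most 0.2 RPKM in all samples of 1 group and at least 2 RPKM in all of the other, 3 genes (*Fbln1*, *Itm2a*, and *Nme4*) were near 0 in scramble cells and 4 (*Kcnk5*, *Nefm*, *Prrg1*, and the transcript AK208673) in *ptges*-KO cells. Single clones can differ in such genes, which was not tested here.

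**Figure D4:**
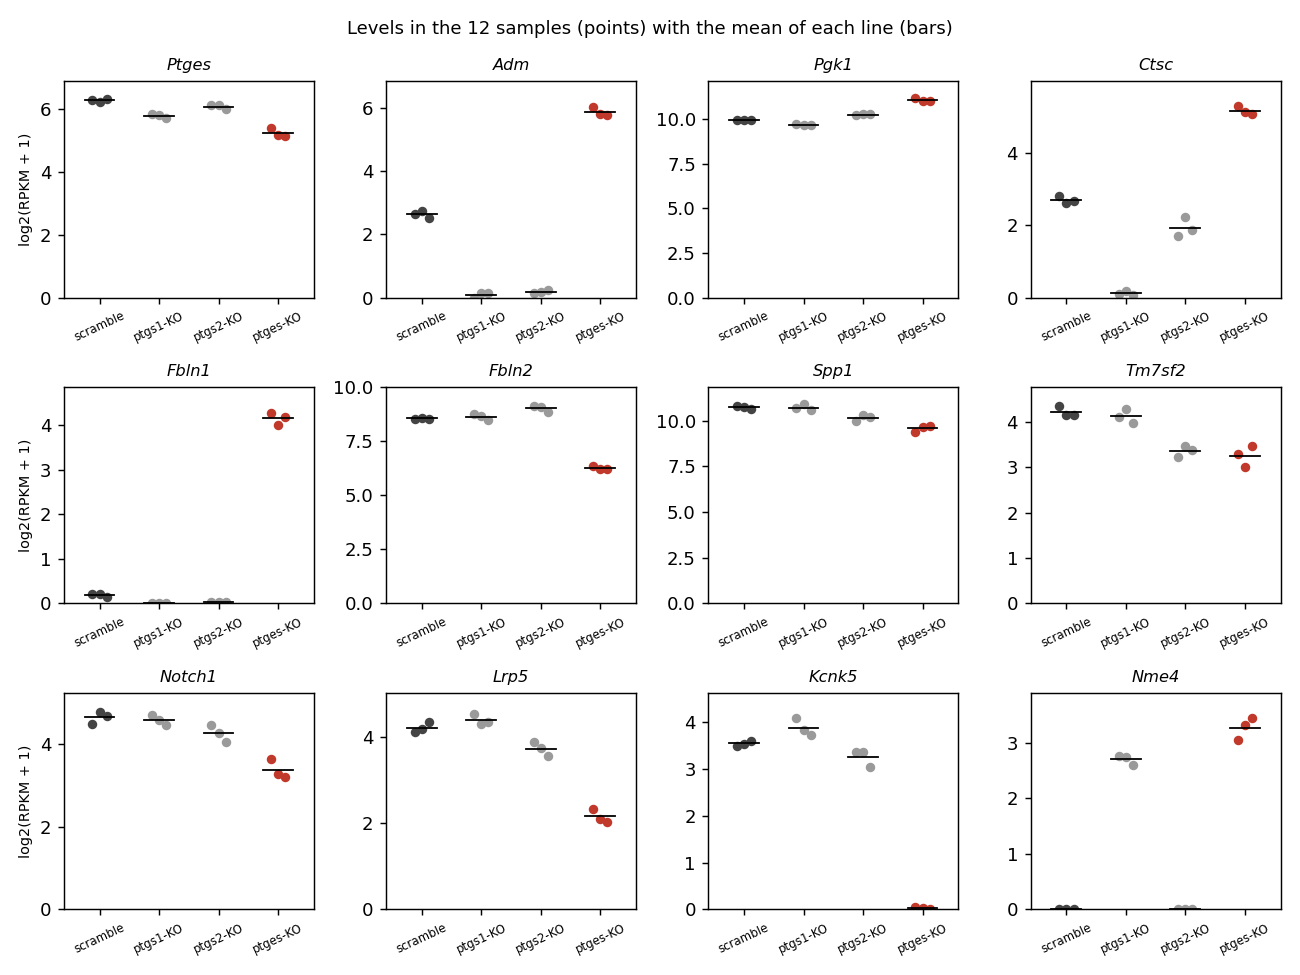
Points give the level of 12 genes in each of the 12 samples as log2(RPKM + 1), by line, and bars give the mean of the 3 samples. *Adm*, *Ctsc*, and *Fbln1* are highest in *ptges*-KO cells, *Fbln2*, *Lrp5*, *Notch1*, and *Kcnk5* are lowest there, and *Nme4* is present in *ptgs1*-KO as well as *ptges*-KO cells.

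Many genes of the extracellular matrix beyond the collagens fell. Basement membranes are sheets of laminin and collagen IV joined by linkers such as perlecan and agrin. Of 10 laminin and linker genes 7 fell (70%) and 2 rose, with a median of -0.52 (-0.34 after the GC and length trends were removed). *Lama5*, the laminin alpha-5 chain, fell from 305, 359.9, and 359 to 140.3, 92.6, and 96.9 RPKM (log2 fold change -1.65, SE 0.162, adjusted p = 1.35e-05), *Agrn* (log2 fold change -1.03, SE 0.11, adjusted p = 2.75e-05), perlecan *Hspg2* (log2 fold change -0.83, SE 0.172, adjusted p = 0.00368), and the shared chain *Lamc1* (log2 fold change -0.57, SE 0.139, adjusted p = 0.00973). Of 28 matrix glycoproteins 13 fell (46.4%) and 2 rose, with 12 to 14 lower when 1 sample was left out. Fibulin 2, *Fbln2*, had 369, 382, and 373 RPKM in scramble and 79.9, 74.5, and 74.1 RPKM in *ptges*-KO cells. The log2 fold change of *Fbln2* was -2.29 (SE 0.088, adjusted p = 2.04e-09), opposite to that of *Fbln1*, and it was also lower than in both other knockout lines (log2 fold changes -2.75, adjusted p = 2.39e-10, and -2.38, adjusted p = 6.44e-10). Fibronectin *Fn1* fell from 40.95, 45.5, and 45.1 to 18.8, 15.1, and 14.6 RPKM (log2 fold change -1.39, SE 0.117, adjusted p = 2.93e-06), and osteopontin *Spp1*, the most abundant member, from 1783, 1702, and 1624 to 681, 813, and 853 RPKM (log2 fold change -1.13, SE 0.117, adjusted p = 2.18e-05). *Sparc* was not called (log2 fold change 0.18, adjusted p = 0.205).

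Some matrix receptors and proteases fell too. Of 11 integrin subunits, the receptors that bind cells to matrix, 5 fell (45.5%) and none rose by limma (0 at an unadjusted p under 0.05), with 3 lower when scramble replicate 2 or 3 or *ptges*-KO replicate 2 or 3 was left out. Removal of the GC and length trends left 4 lower and 1 higher, with a median of -0.16 in place of -0.26. *Itga7* fell from 197, 201, and 196 to 99.6, 95.1, and 104 RPKM (log2 fold change -0.98, SE 0.098, adjusted p = 1.54e-05) and *Itgb7* from 212, 217, and 211 to 112, 107, and 108 RPKM (log2 fold change -0.96, SE 0.087, adjusted p = 5.68e-06), and neither differed past the threshold from *ptgs2*-KO cells (log2 fold changes -0.12, adjusted p = 0.448, and -0.017, adjusted p = 0.917). Of 20 proteases and inhibitors 8 fell (40%) and 1 rose, but only 2 to 4 fell when any sample but *ptges*-KO replicate 1 was left out. Tissue plasminogen activator *Plat* fell from 51.8, 53.96, and 49.6 to 19.2, 20.4, and 21.8 RPKM (log2 fold change -1.299, SE 0.112, adjusted p = 3.67e-06). Urokinase *Plau*, which activates the same substrate, was at 3.96, 3.67, and 3.73 RPKM in scramble and 6.12, 5.21, and 5.42 RPKM in *ptges*-KO cells (log2 fold change 0.46, SE 0.131, adjusted p = 0.0209), a call that was lost without scramble replicate 2 or 3 or *ptges*-KO replicate 1 (0.40 to 0.50 with 1 sample left out).

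Genes of several signaling families of the cell surface fell. Wnt ligands signal through Frizzled receptors and the co-receptors LRP5 and LRP6. Of 35 Wnt pathway genes 11 fell (31.4%) and 2 rose, with a median of -0.25 (-0.17 under quantile normalization) and 8 to 16 lower with 1 sample left out. Removal of the GC and length trends left 12 lower and 4 higher, with a median of -0.18. The median deviation of the list from the scramble mean was -0.037, -0.328, and -0.298 in *ptges*-KO replicates 1 to 3. It was -0.042, 0.010, and 0.007 in the scramble replicates, so *ptges*-KO replicate 1 lay within the scramble range. *Lrp5* fell from 16.3, 17.2, and 19.6 to 4.04, 3.31, and 3.12 RPKM (log2 fold change -2.06, SE 0.117, adjusted p = 8.14e-08), and it was lower than in *ptgs2*-KO (log2 fold change -1.57, adjusted p = 1.01e-06) and *ptgs1*-KO cells (log2 fold change -2.24, adjusted p = 1.41e-08). The ligand *Wnt7b* fell from 8.11, 6.32, and 10.6 to 1.49, 1.02, and 1.38 RPKM (log2 fold change -2.003, SE 0.247, adjusted p = 9.45e-05), the receptor kinase *Ror2* (log2 fold change -1.58, SE 0.11, adjusted p = 5.33e-07), and norrin, *Ndp*, an atypical ligand of this pathway, from 6.78, 6.75, and 8.08 to 0.21, 0.14, and 0.17 RPKM (log2 fold change -2.802, SE 0.108, adjusted p = 2.04e-09). *Ndp* did not differ past the threshold from *ptgs1*-KO cells (log2 fold change -0.032, adjusted p = 0.855). Beta-catenin, *Ctnnb1*, the transducer of the pathway, was at 0.089 (adjusted p = 0.599).

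Notch receptors are cleaved when ligands of a neighboring cell bind them, and the released part induces *Hes1* and *Nrarp*. Of 15 Notch genes 7 fell (46.7%) and none rose by limma (0 at an unadjusted p under 0.05), with 6 to 7 lower when 1 sample was left out. Removal of the GC and length trends left 7 lower and 1 higher, with a median of -0.18 in place of -0.34. Both ligands and both targets tested fell. The ligand *Dll1* fell from 24.4, 27.1, and 25.5 to 7.67, 6.45, and 7.15 RPKM (log2 fold change -1.72, SE 0.107, adjusted p = 2.12e-07), and the receptor *Notch1* from 21.4, 26.3, and 24.6 to 11.4, 8.68, and 8.16 RPKM (log2 fold change -1.28, SE 0.134, adjusted p = 2.34e-05). The target *Nrarp* fell from 33.4, 34.4, and 31.2 to 20.02, 17, and 18.5 RPKM (log2 fold change -0.803, SE 0.104, adjusted p = 0.000144) and the target *Hes1*, which lies in the low segment of chromosome 16, from 7.75, 8.94, and 9.3 to 4.75, 4.57, and 4.57 RPKM (log2 fold change -0.78, SE 0.105, adjusted p = 0.000191). For none of these 4 genes did the groups overlap. *Dll1* was at 0.18 (adjusted p = 0.274) against *ptgs2*-KO cells, and *Notch1* was lower there (log2 fold change -0.89, adjusted p = 0.000516). *Rbpj*, the DNA-binding partner of Notch, was at 0.13 (adjusted p = 0.422).

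Of 38 axon guidance genes, whose products attract or repel migrating cells and vessels as well as axons, 17 fell (44.7%) and 3 rose, with 15 to 18 lower when 1 sample was left out. Removal of the GC and length trends left 17 lower and 6 higher, with a median of -0.16 in place of -0.25. Among 19 semaphorins and plexins 12 fell. *Unc5b*, a netrin receptor, fell from 95.5, 105, and 104 to 35.8, 28.6, and 30.2 RPKM (log2 fold change -1.66, SE 0.115, adjusted p = 5.33e-07), the plexin *Plxna4* from 4, 4.81, and 4.83 to 0.68, 0.59, and 0.6 RPKM (log2 fold change -1.77, SE 0.133, adjusted p = 1.07e-06), *Sema6b* (log2 fold change -1.68, SE 0.127, adjusted p = 1.08e-06), and *Sema3a* (log2 fold change -1.32, SE 0.137, adjusted p = 2.18e-05). Of 27 cadherin and junction genes 12 fell (44.4%) and 2 rose, among them *Cdh6*, which rose from 42.4, 49.4, and 50.1 to 121, 90.5, and 85.96 RPKM (log2 fold change 1.04, SE 0.139, adjusted p = 0.000182).

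Many growth factors and receptor kinases fell. Of 18 tested, 10 fell (55.6%) and 3 rose, with 9 to 12 lower when 1 sample was left out. Of the 10 receptors 6 fell and none rose by limma (0 at an unadjusted p under 0.05), and of the 8 ligands 4 fell and 3 rose. Stem cell factor *Kitl*, the ligand of KIT, fell from 19.8, 19.9, and 19.6 to 9.33, 7.94, and 7.13 RPKM (log2 fold change -1.19, SE 0.106, adjusted p = 4.78e-06). *Mertk*, a receptor for apoptotic cells, fell (log2 fold change -1.11, SE 0.105, adjusted p = 9.34e-06). Of 9 genes of the EGF family 5 fell and 2 rose, and its ligand betacellulin, *Btc*, fell from 32.2, 35.4, and 32.3 to 9.11, 9.09, and 8.02 RPKM (log2 fold change -1.82, SE 0.114, adjusted p = 2.12e-07). The receptor *Erbb2* fell (log2 fold change -0.599, SE 0.104, adjusted p = 0.00117). The median deviation of the EGF family from the scramble mean was -0.163, -0.326, and -0.320 in the *ptges*-KO replicates. It was lower in *ptgs2*-KO cells, at -0.363, -0.484, and -0.609, and was 0.023, -0.080, and -0.058 in *ptgs1*-KO cells. Of 38 genes of the TGF-beta family 10 fell (26.3%) and 7 rose (18.4%), with 4 higher without scramble replicate 2 and 6 lower without *ptges*-KO replicate 3. Of its 10 receptors 5 fell and of its 6 ligands 3 rose, among them *Inhba*, a subunit of activin A, from 4.43, 3.5, and 4.56 to 11.99, 9.65, and 8.64 RPKM (log2 fold change 1.098, SE 0.123, adjusted p = 3.77e-05). The BMP antagonist *Grem1* fell from 60.3, 63.1, and 65.3 to 31.97, 28.8, and 25.6 RPKM (log2 fold change -1.11, SE 0.102, adjusted p = 7.55e-06). Of 13 angiogenic factors and receptors 1, *Adm*, rose (3 under median ratio scaling and 4 under quantile normalization) and 3 fell, *Angptl2* from 404, 413, and 416 to 202, 187, and 185 RPKM (log2 fold change -1.101, SE 0.089, adjusted p = 2.06e-06).

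Immediate early genes split by family member. AP-1 factors and early growth response factors are induced within minutes of growth factor or stress signals. Of 20 tested, 9 fell (45%) and 4 rose (20%). *Fos* fell from 12.7, 10.9, and 13.9 to 4.02, 4.97, and 5.07 RPKM (log2 fold change -1.24, SE 0.117, adjusted p = 8.46e-06) and *Fosb* from 28.5, 27.4, and 30.03 to 12.2, 10.4, and 11.6 RPKM (log2 fold change -1.26, SE 0.10, adjusted p = 1.7e-06), while *Egr1* rose from 29.8, 31.2, and 32.8 to 51.7, 41.8, and 42.98 RPKM (log2 fold change 0.52, SE 0.103, adjusted p = 0.00264) and *Egr3* fell (log2 fold change -0.62, SE 0.106, adjusted p = 0.00107). *Myc* rose from 79.9, 78.4, and 83.9 to 131, 113, and 107 RPKM (log2 fold change 0.53, SE 0.092, adjusted p = 0.00123), and *Jun* fell (log2 fold change -0.39, SE 0.081, adjusted p = 0.00349). *Fos* did not differ past the threshold from *ptgs2*-KO cells (log2 fold change -0.17, adjusted p = 0.346). In the MAPK output list, which shares *Myc* and *Egr1*, 7 of 19 fell and 5 rose, and 5 of its 9 feedback inhibitors fell, among them *Spred3* (log2 fold change -0.89, SE 0.098, adjusted p = 3.42e-05). The count higher was 2 without scramble replicate 2 and 3 without scramble replicate 1 or 3 or *ptges*-KO replicate 2, and without *ptges*-KO replicate 2 the count lower was 4.

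In the prostanoid pathway, the 3 targeted genes set aside, 5 of 13 genes rose (38.5%) and 2 fell, with 3 higher when scramble replicate 1 or 2 or *ptges*-KO replicate 2 or 3 was left out. Cytosolic prostaglandin E synthase *Ptges3*, which makes the same product and also serves HSP90 as a co-chaperone, rose from 282, 302, and 289 to 369.7, 350.4, and 353 RPKM (log2 fold change 0.296, SE 0.067, adjusted p = 0.00604). Of the prostanoid receptors, *Ptger1*, which encodes the EP1 receptor, fell from 28.6, 26.4, and 30.9 to 21.6, 20.4, and 18.6 RPKM (log2 fold change -0.48, SE 0.097, adjusted p = 0.0031). *Ptgfr*, the prostaglandin F receptor, which lies in the low distal segment of chromosome 3, had 0.57, 0.94, and 1.14 RPKM in scramble and 0.13, 0.11, and 0.16 RPKM in *ptges*-KO cells (log2 fold change -0.72, SE 0.131, adjusted p = 0.00162). Among 14 genes responsive to cAMP, the second messenger of some prostaglandin E2 receptors, 3 rose and 2 fell, 1 when any sample but *ptges*-KO replicate 1 was left out. The phosphodiesterase *Pde4b*, which degrades cAMP, rose from 1.8, 2.15, and 2.05 to 3.94, 4.64, and 4.56 RPKM (log2 fold change 0.84, SE 0.116, adjusted p = 0.00022).

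Most secreted immune signals tested fell. Of 9 chemokines and cytokines at or above 1 RPKM 6 fell (66.7%) and 1, *Mif*, rose, with 4 to 6 lower when 1 sample was left out. The list was also low in *ptgs2*-KO cells. Its median deviation from the scramble mean was -0.352, -0.413, and -0.476 in *ptges*-KO replicates 1 to 3. It was -0.513, -0.438, and -0.477 in *ptgs2*-KO and -0.042, 0.040, and -0.185 in *ptgs1*-KO cells. Fractalkine, *Cx3cl1*, which draws monocytes and NK cells, had 45.7, 49.2, and 45.4 RPKM in scramble and 10.4, 9.8, and 9.56 RPKM in *ptges*-KO cells. The log2 fold change of *Cx3cl1* was -2.13 (SE 0.106, adjusted p = 2.38e-08), and it was also lower than in *ptgs2*-KO cells (log2 fold change -1.503, adjusted p = 5.83e-07). *Ccl2*, a monocyte chemokine, had 64.2, 49.3, and 51.7 RPKM in scramble and 30.2, 43.3, and 43.9 RPKM in *ptges*-KO cells (log2 fold change -0.49, SE 0.15, adjusted p = 0.0278), and its call was lost without scramble replicate 1 or 3 or *ptges*-KO replicate 1 (-0.58 to -0.32 with 1 sample left out). The adhesion molecule *Vcam1*, in the low distal segment of chromosome 3, fell from 196, 202, and 187 to 96.8, 90.8, and 89.3 RPKM (log2 fold change -1.07, SE 0.097, adjusted p = 5.72e-06), beside 100.0, 100.4, and 87.96 RPKM in *ptgs2*-KO cells (log2 fold change -0.056, adjusted p = 0.74). Of 23 interferon response genes 7 fell (30.4%) and 3 rose, with 4 lower without scramble replicate 1. *Ifitm1* fell from 34.2, 23.9, and 25.9 to 8.45, 8.97, and 9.52 RPKM (log2 fold change -1.52, SE 0.143, adjusted p = 8.5e-06) and *Ifitm3* (log2 fold change -0.63, SE 0.09, adjusted p = 0.000291). Of 12 genes of MHC class I presentation 1 rose and 2 fell, with none lower without scramble replicate 1 or 2 and 1 lower when any other sample was left out, and *B2m* and *H2-D1*, the most abundant, were at 0.15 (adjusted p = 0.341) and -0.16 (adjusted p = 0.315). Of 15 NF-kB genes 2 rose and 2 fell, with 1 higher without scramble replicate 3 or *ptges*-KO replicate 1 or 3 and 1 lower without scramble replicate 1 or 3 or *ptges*-KO replicate 2 or 3. Of 6 immune checkpoint ligands 1 rose and 1 fell, and none fell without scramble replicate 1 or *ptges*-KO replicate 3.

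Solute carriers, Hox genes, and lysosomal genes also fell more often than they rose. Of 158 solute carriers 51 fell (32.3%) and 8 rose, with a median of -0.23. The count lower was 32 without scramble replicate 2 or without *ptges*-KO replicate 2 or 3, and the count higher was 3 to 5 with any 1 sample left out. The fatty acid transporter *Slc27a1* fell (log2 fold change -1.11, SE 0.099, adjusted p = 5.09e-06), and the abundant amino acid transporters *Slc38a2* and *Slc7a5* were at -0.18 (adjusted p = 0.269) and -0.32 (adjusted p = 0.0846) and were called lower without *ptges*-KO replicate 1. Of 21 Hox genes, which keep the body position of a cell's origin, 10 fell (47.6%) and 2 rose. Removal of the GC and length trends left 9 lower and 3 higher, with a median of -0.10 in place of -0.23. *Hoxb6* fell from 8.94, 6.72, and 8.04 to 1.48, 1.95, and 1.57 RPKM (log2 fold change -1.74, SE 0.132, adjusted p = 1.14e-06) and its neighbor *Hoxb7* from 9.87, 8.34, and 9.3 to 2.16, 2.08, and 2.18 RPKM (log2 fold change -1.69, SE 0.127, adjusted p = 1.05e-06), and both were lower than in *ptgs2*-KO cells (log2 fold changes -1.66, adjusted p = 1.94e-06, and -1.73, adjusted p = 8.81e-07). *Hoxd9*, the most abundant, was at 0.068 (adjusted p = 0.628). Of 58 lysosomal genes 13 fell (22.4%) and 2 rose, and the cathepsins moved apart, with *Ctsh* down from 8.38, 6.23, and 6.05 to 1.4, 1.97, and 2.69 RPKM (log2 fold change -1.39, SE 0.206, adjusted p = 0.000389) against the rise of *Ctsc*.

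Of 25 genes of the YAP and TEAD pathway 3 rose and 1 fell. Both counts depended on the setting, with 5 lower without *ptges*-KO replicate 1, 5 higher and 5 lower under median ratio scaling, 4 higher and 5 lower under quantile normalization, and 7 higher and 4 lower after the GC and length trends were removed. Of 38 Rab GTPases 6 rose and 2 fell, with 15 higher under median ratio scaling and 11 under quantile normalization, and with none lower without scramble replicate 1 or 3 or *ptges*-KO replicate 2 or 3. Of 24 kinesins 5 rose and 1 fell, with 1 to 3 higher when any sample but *ptges*-KO replicate 3 was left out, and of 4 keratins 1 rose, a call lost without scramble replicate 3 or *ptges*-KO replicate 2. Of 13 protocadherins 5 fell, with 2 to 3 lower when any of 5 samples was left out. For several further lists the values as deposited gave shares at or under those over all genes in both directions, which other settings changed for some. Of 10 cell cycle inhibitors and G1 cyclins, and likewise of 9 matrix receptors other than integrins, 1 rose and 1 fell. No cell cycle inhibitor or cyclin rose with any 1 sample left out, while 2 rose under median ratio scaling and 4 after the GC and length trends were removed. Of these receptors 4 fell without *ptges*-KO replicate 1 or after that removal, and 3 under median ratio or quantile scaling. Of 275 Zfp genes 10 rose (3.64%) and 32 fell (11.6%), with 16 to 21 lower without scramble replicate 1 or 3 or *ptges*-KO replicate 1, 6 higher without scramble replicate 2, 19 higher under median ratio scaling, and 22 higher and 44 lower after the GC and length trends were removed. Of 56 histone genes 1 rose and 3 fell. Of 26 NRF2 targets, which defend against oxidants, 2 rose and 2 fell, with 1 higher when any sample but scramble replicate 1 was left out and 6 higher under median ratio or quantile scaling and after the GC and length trends were removed. Of the ferritin genes *Ftl1* was at 0.18 (adjusted p = 0.291) and *Fth1* at -0.19 (adjusted p = 0.168). The list of genes of an undifferentiated melanoma state had 2 of 18 higher (4 under median ratio scaling and 5 under quantile normalization) and 2 lower. *Sox2*, in the high proximal segment of chromosome 3, rose (log2 fold change 0.36). *Twist2* also rose (0.23 to 0.31 with 1 sample left out), a call lost without scramble replicate 2 or 3 or *ptges*-KO replicate 1. *Sox9* fell, and *Aqp1* fell from 10.7, 11.2, and 12.4 to 2.21, 3.6, and 2.9 RPKM (log2 fold change -1.68, SE 0.13, adjusted p = 1.27e-06). The abundant members *Vim*, at 0.27 (adjusted p = 0.117), and *S100a4*, at -0.41, were not called.

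The cells were checked against melanocyte markers. Of 22 found, 15 were under 1 RPKM in every sample and 8 were listed at 0 in all. The defining pigment genes *Tyr*, *Dct*, *Pmel*, and *Mlana* and the factor *Sox10* did not pass the filter, so the label melanoma rests on the origin of the line and not on these transcripts. Of 5 members tested, 2 fell. *Gpnmb* fell from 16.1, 15.1, and 16.6 to 3.36, 3.61, and 3.33 RPKM (log2 fold change -1.93, SE 0.102, adjusted p = 4.14e-08) and *Slc24a5* (log2 fold change -0.87, SE 0.187, adjusted p = 0.00457). *Tfap2a*, a transcription factor of the neural crest and the other most abundant tested member, had 11.2, 10.95, and 12.6 RPKM in scramble and 17.7, 13.3, and 16.98 RPKM in *ptges*-KO cells, without overlap, and was not called (log2 fold change 0.43, adjusted p = 0.097). *Mitf*, the master factor of the lineage, picked after its values were seen, had 2.33, 2.7, and 3.01 RPKM in scramble and 0.97, 2.19, and 2.1 RPKM in *ptges*-KO cells (log2 fold change -0.45, adjusted p = 0.132). The summed level of the list was 39.0, 37.4, and 42.7 RPKM in scramble and 30.8, 27.8, and 32.1 RPKM in *ptges*-KO cells. Without *Gpnmb*, the sum of the other 21 markers was 22.9, 22.2, and 26.2 RPKM in scramble and 27.4, 24.2, and 28.8 RPKM in *ptges*-KO cells, so the lower sum of the whole list came from *Gpnmb*.

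Most markers of other cell types were near 0, while *Cd14* and *Pdgfra* lay well above it. All 7 T and B cell markers and all 5 endothelial markers were under 1 RPKM in every sample, with sums of at most 0.34 and 0.28 RPKM. The leukocyte marker *Ptprc* was at most 0.13 RPKM and *Lyz2* was listed at 0 throughout. Of 7 macrophage and leukocyte markers, only *Cd14* passed 1 RPKM, at 7.77, 9.35, and 5.98 RPKM in scramble and 5.65, 5.63, and 5.8 RPKM in *ptges*-KO cells (log2 fold change -0.36, adjusted p = 0.0882). It was called lower without scramble replicate 3, and the sums were 7.90, 9.37, and 6.07 RPKM in scramble and 5.82, 5.71, and 5.84 RPKM in *ptges*-KO cells. Of 6 markers of fibroblasts only *Pdgfra* passed the filter, and it fell from 8.06, 7.82, and 8.37 to 5.83, 5.24, and 5 RPKM (log2 fold change -0.52, SE 0.102, adjusted p = 0.0027), with sums of 8.38, 8.34, and 8.89 RPKM in scramble and 6.01, 5.34, and 5.03 RPKM in *ptges*-KO cells. *Dcn* and *Lum*, which define fibroblasts, were listed at 0 in all samples. Of 6 epithelial markers none passed the filter, the highest being *Krt8*, and the sums were 0.92, 0.98, and 0.88 RPKM in scramble and 0.37, 0.43, and 0.58 RPKM in *ptges*-KO cells. In bulk RNA, fewer cells of a kind and less RNA per cell cannot be told apart.

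Genes were then ordered along the chromosomes. On chromosome 16, 28% of 328 genes fell and 9.45% rose, and on chromosome 3, 23.4% of 530 genes rose and 14.7% fell. The share that rose was also above that over all genes on chromosome X (20.6%, with 9.44% lower) and chromosome 15 (20.5%, with 13.3% lower), where no window of at least 20 genes reached 0.2 in either direction. In 277 windows of up to 40 neighboring genes, the median log2 fold change was at or under -0.2 in 7 and at or over 0.2 in 3, of 267 windows with at least 20 genes. All 3 high windows and 3 of the low ones lay on chromosome 3, 3 low ones on chromosome 16, and 1 on chromosome 8 (-0.22). Windows of chromosomes 3 and 16 were joined into 3 segments, chosen after the values were seen, so that their values are a description without a test. The proximal segment of chromosome 3 also took in a window with a median of 0.19, and the distal one a window at -0.13 and a last window of 10 genes at -0.21.

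In the middle of chromosome 16, from 20.7 to 55.9 Mb, 66 of 120 genes fell (55%) and 1 rose. The median was -0.32, and the segment stood at -0.27, -0.36, and -0.40 in *ptges*-KO replicates 1 to 3 and at -0.010, -0.036, and 0.050 in the scramble replicates. It was also low against *ptgs2*-KO (-0.42) and *ptgs1*-KO cells (-0.38). On chromosome 3, from 5.2 to 84.6 Mb, 69 of 160 genes rose (43.1%) and 7 fell, with a median of 0.27, and from 104.6 to 159.9 Mb, 53 of 170 fell (31.2%) and 4 rose, with a median of -0.22. The proximal segment stood at 0.32, 0.28, and 0.25 in the *ptges*-KO replicates, beside 0.25, 0.22, and 0.14 in *ptgs2*-KO and -0.24, -0.23, and -0.38 in *ptgs1*-KO cells, so the lines differed among themselves. The distal segment stood at -0.16, -0.21, and -0.21 in *ptges*-KO cells, beside 0.20, 0.23, and 0.18 in *ptgs2*-KO and -0.22, -0.22, and -0.38 in *ptgs1*-KO cells, so *ptgs1*-KO cells were low there as well. DNA copy number was not measured. Without the genes of these segments 16 of 20 glycolysis genes and 10 of 17 heat shock genes were higher, and 15 of 25 cholesterol genes were lower. Other lists lost calls, with 8 of 32 Wnt genes lower in place of 11 of 35 and 9 of 23 cadherin and junction genes lower in place of 12 of 27. The NF-kB and prostanoid lists kept 1 lower member each in place of 2, the undifferentiated list 1 higher member in place of 2, and the only lower members of the initiation factor and proteasome lists were lost.

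**Figure D5:**
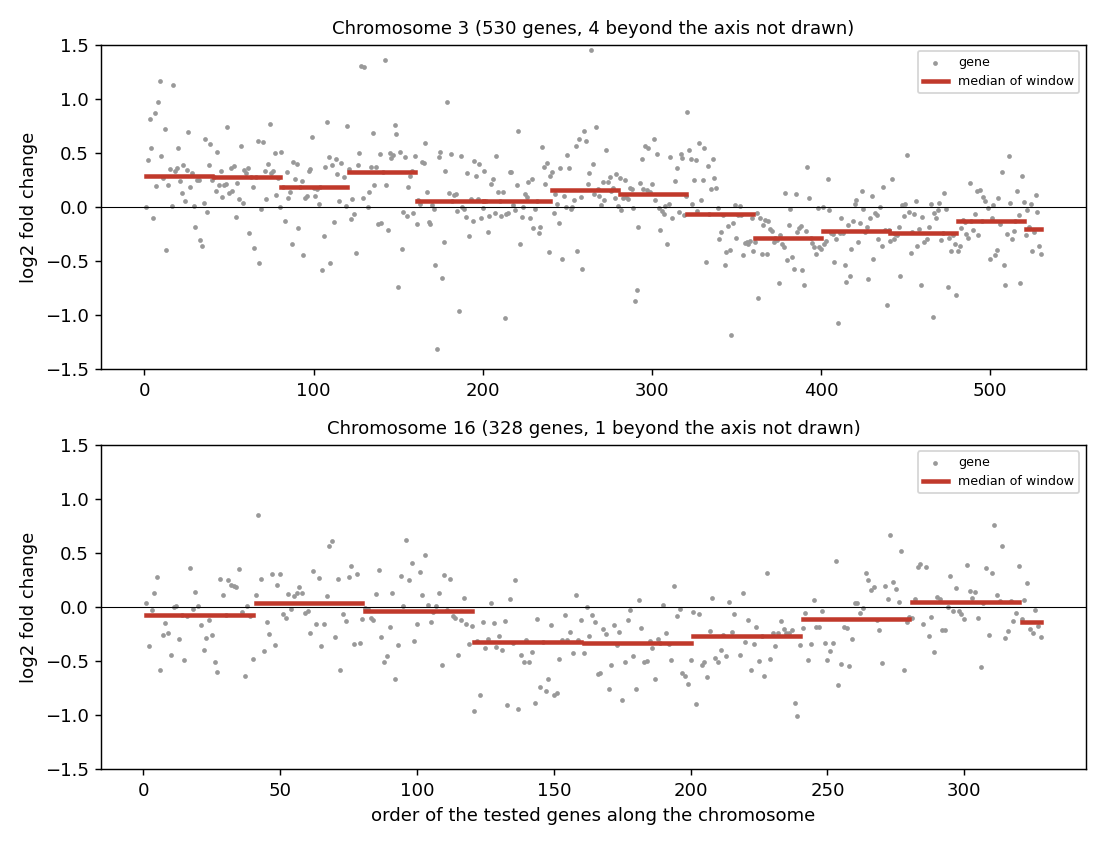
Points give the log2 fold change, *ptges*-KO minus scramble, of the tested genes of chromosome 3 (530 genes, 4 beyond the axis) and chromosome 16 (328 genes, 1 beyond the axis) in their order along the chromosome, and red lines give the median of windows of up to 40 genes. The lines lie above 0 at the start of chromosome 3, below 0 at its end, and below 0 in the middle of chromosome 16.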

How the data were processed

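RNA of 12 samples, 3 each of 4 lines, had been sequenced as paired-end libraries. The authors deposited the values as RPKM to 2 decimals (the study's methods call them normalized counts), made on genome build mm10 per the submitters' processing notes, with the aligner not given in the sources used here. The labels name more than one library kit. Summed values differed little between samples (878504 to 903881), so a scaling to a fixed total cannot be told apart from RPKM. Depth, estimated from the steps of low values, was 13.3 to 17.1 M reads, and intervals from counting error were not computed.

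Values were analysed as log2(RPKM + 1) for genes whose mean reached 1 RPKM, using limma 3.58.1 (lmFit and eBayes with trend) in R 4.3.3 with the 4 groups in 1 model and Benjamini-Hochberg adjustment. The step was tested on simulated data. A table with 0 unmapped columns was used. Named were *Ptges*, *Ptgs1*, and *Ptgs2*, the 12 largest rises and falls in log2 fold change and the 6 largest in RPKM among called genes without overlap (collagens aside), up to 4 called and 2 most abundant members per list, and genes near 0 in 1 group, with a few results that the rule names not reported here. The members and lists were chosen with earlier results of these data known. Of the genes tested, 94.6% matched GENCODE M21 (for position, GC content, and length), 854 through an older symbol. The 605 without a match had 3.31% higher and 24.5% lower. Promoters came from RefSeq. The alternatives were the pseudocount, the filter, scaling by median ratios or quantiles, a replicate block, only 2 groups in the model, no trend, leaving out each sample, and, added after the data were seen, removal of GC and length trends, removal of the 20 most abundant genes, and removal of the chromosome segments.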

Additional observations from a re-analysis of the deposited data

How the results depend on the processing

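The count of changed genes was 2969 and ranged from 1936 (without *ptges*-KO replicate 2) to 2746 when 1 sample was left out, with 862 to 1122 higher (main 1342, lowest without scramble replicate 2) and 1053 to 1677 lower (main 1627, lowest without scramble replicate 3). Genes higher numbered 2054 under median ratio scaling, which moved the median of all genes from -0.030 to 0.009, 2188 after the GC and length trends were removed, and 2175 with a replicate block added to that removal. Genes lower numbered 1058 with a filter at a mean of 10 RPKM, which tested 7957 genes. Leaving out the 20 most abundant genes gave 1054 higher and 2355 lower. The count against *ptgs2*-KO cells, 1873, was 1104 to 2236 with 1 sample left out and 2829 after the GC and length trends were removed. The number of genes near 0 in 1 group, 7, was 7 to 10. *Vars*, at -0.06, reversed to 0.148 after the GC and length trends were removed, with and without the block. The log2 fold change of *Ptges* stayed between -1.118 and -0.977 and was called under every alternative. For the named genes, 4966 gene and setting pairs kept direction and call, 284 lost and 79 gained the call, and 2 reversed. The cause of these changes was not tested. The replicate block gave 1387 higher and 1712 lower. Same-numbered scramble and *ptges*-KO samples did not deviate together (r = -0.34, -0.19, and -0.17 across genes), and the main model took the samples as unpaired. With 3 samples per group these correlations cannot decide whether same-numbered samples of the lines shared a batch, which was not tested. Whole read counts were not available, so depth limits genes near 1 RPKM most.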
